A study of Mus musculus with 9 samples.

Results

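Cxcl1, Cxcl2, Cxcl3 and Cxcl5 are the mouse genes of 4 CXC chemokines, small secreted proteins that attract neutrophils. They were chosen by symbol, 4 of the 22524 genes counted in each library, and read counts for them were compared across the 9 libraries of the series. The libraries were made from primary macrophages grown from C57BL/6 mouse bone marrow (bone marrow-derived macrophages, BMDMs) over 7 days of culture. They form 3 groups of 3: wild-type cells left untreated (untreated control), wild-type cells given LPS for 6 h (LPS control), and cells labelled SRF-KO given LPS for 6 h (LPS SRF-KO). LPS is lipopolysaccharide, a component of the bacterial outer membrane, and SRF is serum response factor, a transcription factor that binds CArG boxes. The labels name no Cre driver, deleted exon, animal or sex, there is no untreated SRF-KO group, and nothing says that the replicates came from separate mice, so p-values measure the spread between these libraries.

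The 4 chemokines carry the ELR motif before their first cysteines, and they act through the receptor CXCR2 on neutrophils. In macrophages their genes are silent or nearly so at rest and are switched on when LPS engages TLR4 and the adaptor MyD88, largely through NF-kB. Their mRNAs are short-lived, since AU-rich elements in them recruit decay factors such as tristetraprolin (Zfp36).

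All 4 genes lie on the plus strand of chromosome 5 in GRCm38, by the GENCODE M21 annotation. Cxcl5 (ENSMUSG00000029371) spans chr5:90759360-90761624 and Cxcl3 (ENSMUSG00000029379) spans chr5:90786103-90789600. Cxcl1 (ENSMUSG00000029380) spans chr5:90891241-90893115, and Cxcl2 (ENSMUSG00000058427) spans chr5:90903871-90905938. Cxcl2 starts 12.63 kb after Cxcl1, whereas Cxcl3 and Cxcl5 form a separate pair more than 100 kb upstream. Cxcl2 and Cxcl3 share 126 stretches of 50 bases among their annotated transcripts, 5.84% of those in Cxcl2 and 3.51% of those in Cxcl3. Reads from these stretches cannot be assigned to 1 gene with certainty. No other pair among the 4 genes shared a stretch of 25 bases.

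RefSeq (GRCm38.p6) promoter windows were found for 3 of the 4 genes, Cxcl1, Cxcl2 and Cxcl3. The 100 bases before the earlier of the RefSeq and GENCODE starts are shown because the 3 genes responded to the same treatment, and the same 10-base string, in capitals, stands in each. It matches the NF-kB consensus.
Cxcl1, chr5:90891141-90891240, plus strand: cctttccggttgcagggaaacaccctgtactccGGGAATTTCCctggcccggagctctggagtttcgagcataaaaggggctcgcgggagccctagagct
Cxcl2, chr5:90903771-90903870, plus strand: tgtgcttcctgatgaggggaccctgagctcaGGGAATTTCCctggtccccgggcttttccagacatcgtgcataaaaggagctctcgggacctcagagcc
Cxcl3, chr5:90786001-90786100, plus strand: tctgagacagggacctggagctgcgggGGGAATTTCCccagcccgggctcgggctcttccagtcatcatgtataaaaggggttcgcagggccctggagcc

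The first base of the string lies 67, 69 and 75 bases before the GENCODE start of Cxcl1, Cxcl2 and Cxcl3. Searched on both strands, GGGAATTTCC occurs in 29 of 32851 RefSeq promoter windows of 300 bases (0.0883%), and the NF-kB consensus occurs in 1480 (4.51%). The string itself was picked after the sequences had been seen. The CArG box, the element SRF binds, occurs in 535 windows (1.63%) and the AP-1 site TGANTCA in 2565 (7.81%). Neither was found in the windows of Cxcl1, Cxcl2 or Cxcl3, which says only that these letters are not in the window. Of the 15 neighbouring genes with a window, 0 had the NF-kB consensus and 1, Ppbp, had a CArG box.

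Total counts were 15867737 to 17606538 in untreated control, 15321839 to 19009123 in LPS control and 16987011 to 24912173 in LPS SRF-KO. Srf itself was at 44.3 ± 4.54 CPM (counts scaled by TMM to a common library size; SD, n = 3) in untreated control, 57.6 ± 2.17 in LPS control and 1.05 ± 0.438 in LPS SRF-KO, so its level matched the labels. The Y-linked genes Uty, Ddx3y, Kdm5d and Eif2s3y summed to 1700 to 2749 counts in each control library and to 1 to 3 in each LPS SRF-KO library, so genotype and sex of the cells cannot be told apart. The 10 macrophage markers were all detected. They summed to 17455 to 18041 CPM in untreated control, 20498 to 20985 in LPS control and 19497 to 19700 in LPS SRF-KO. Lyz2 was the largest part of the LPS SRF-KO sum, and 8 of the 10 were lower there than in LPS control. Of the 13 neutrophil and granulocyte markers, Ly6g, Mpo, Elane and Prtn3 had 0 counts in all 6 LPS-treated libraries, while Mmp8 and Camp were higher and Csf3r lower in LPS SRF-KO than in LPS control. LPS moved most of the transcriptome: with p-values of edgeR's quasi-likelihood test adjusted by Benjamini-Hochberg, LPS control against untreated control had 81.7% of the 11560 genes tested called, 40.8% as higher. In LPS SRF-KO against LPS control 77% were called, 39.1% as higher, so a call alone says little about 1 gene.

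LPS raised Cxcl1, Cxcl2 and Cxcl3 strongly in control cells, from means of 0.280, 3.81 and 0.399 CPM to 19.9, 136.5 and 174. In LPS SRF-KO they were higher again than in LPS control, by 30.9-fold, 9.79-fold and 15.7-fold, and Cxcl5 was at a trace level, with counts in 0 of 3 untreated control, 2 of 3 LPS control and 3 of 3 LPS SRF-KO libraries. In raw reads, the 4 genes together held 0.000533% ± 6.08e-05 of all counts in untreated control, 0.0268% ± 0.000967 in LPS control and 0.486% ± 0.0166 in LPS SRF-KO (SD, n = 3). Cxcl3 alone held 0.283% of the counts in LPS SRF-KO. These are shares of bulk RNA, in which more cells that express a gene and more RNA per cell cannot be told apart.

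**Figure D1:**
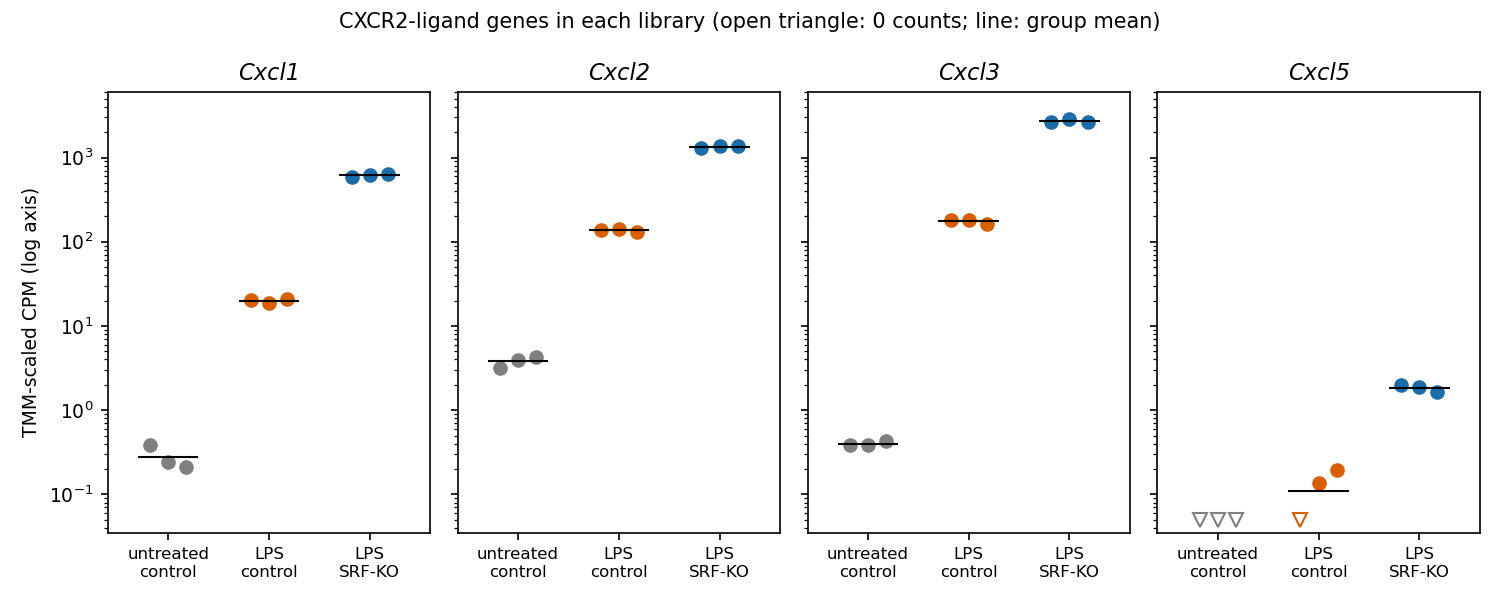
TMM-scaled CPM on a log axis of Cxcl1, Cxcl2, Cxcl3 and Cxcl5 in each library of the 3 groups. Points are libraries, lines are group means and open triangles mark 0 counts. The groups are separate for Cxcl1, Cxcl2 and Cxcl3, and for Cxcl5 1 LPS control library is at 0 like the untreated ones.

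Cxcl1, also called KC, is a mouse counterpart of the human GRO chemokines. It had 8, 5 and 4 counts in the untreated control libraries, 255, 270 and 319 in LPS control, and 13126, 16103 and 11148 in LPS SRF-KO. Scaled for depth, these were means of 0.280 ± 0.0930, 19.9 ± 1.11 and 616 ± 21.3 CPM. No library of 1 group reached into the range of another. Cxcl1 rose 69.1-fold with LPS in control cells (log2 fold change 6.11, SE 0.166, adjusted p = 3.37e-29). It was 30.9-fold higher again in LPS SRF-KO than in LPS control (log2 4.95, SE 0.0524, adjusted p = 5.81e-42), the largest difference between the LPS-treated groups among the 4 genes.

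Cxcl2, or MIP-2, is a chemokine that macrophages release early after LPS. It had the most counts of the 4 at rest, 65, 83 and 81 in untreated control. LPS control libraries had 1689, 2051 and 2036 counts and LPS SRF-KO libraries had 28511, 35088 and 24118. The means were 3.81 ± 0.610, 136.5 ± 5.08 and 1337 ± 45.2 CPM, again without overlap between groups. Cxcl2 rose 35.9-fold with LPS (log2 5.17, SE 0.0750, adjusted p = 4.15e-38) and was 9.79-fold higher in LPS SRF-KO than in LPS control (log2 3.29, SE 0.0446, adjusted p = 1.12e-38).

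Cxcl3, or DCIP-1, is the closest relative of Cxcl2 in this group by shared sequence. It had 8 counts in each untreated control library, 2220, 2603 and 2533 in LPS control, and 58865, 74165 and 46757 in LPS SRF-KO. Its means were 0.399 ± 0.0246, 174 ± 9.03 and 2724 ± 126 CPM. Cxcl3 went from the level of Cxcl1 at rest to the most counts of the 4 genes in both LPS-treated groups. It rose 430-fold with LPS (log2 8.75, SE 0.108, adjusted p = 1.99e-40), and 18 of the 11560 genes tested rose more. In LPS SRF-KO it was 15.7-fold above LPS control (log2 3.97, SE 0.0461, adjusted p = 1.19e-40).

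Cxcl5, or LIX, is known mainly from epithelial and stromal cells and platelets, and it stayed at a trace level here. It had 0 counts in all 3 untreated control libraries, 0, 2 and 3 in LPS control, and 44, 49 and 29 in LPS SRF-KO. A count of 0 over the untreated group allows up to 3 counts, or 0.0497 CPM. The LPS control mean was 0.111 ± 0.0998 CPM and the LPS SRF-KO mean 1.84 ± 0.176 CPM. LPS control, on 5 counts, was at 2.38-fold the untreated limit, a ratio that leaves out counting error in those 5 (adjusted p = 0.0108 in the fit). The groups overlap at 0, however, and the adjusted p was 0.0623 without LPS control replicate 3. In LPS SRF-KO Cxcl5 was higher than in LPS control in every library, at 122 counts against 5 in all, a depth-scaled ratio of 15.7 with an exact 95% interval of 6.56 to 49.3 for counting error (log2 3.90, SE 0.466, adjusted p = 1.49e-09). It passed the filter on low counts only through its LPS SRF-KO counts.

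**Figure D2:**
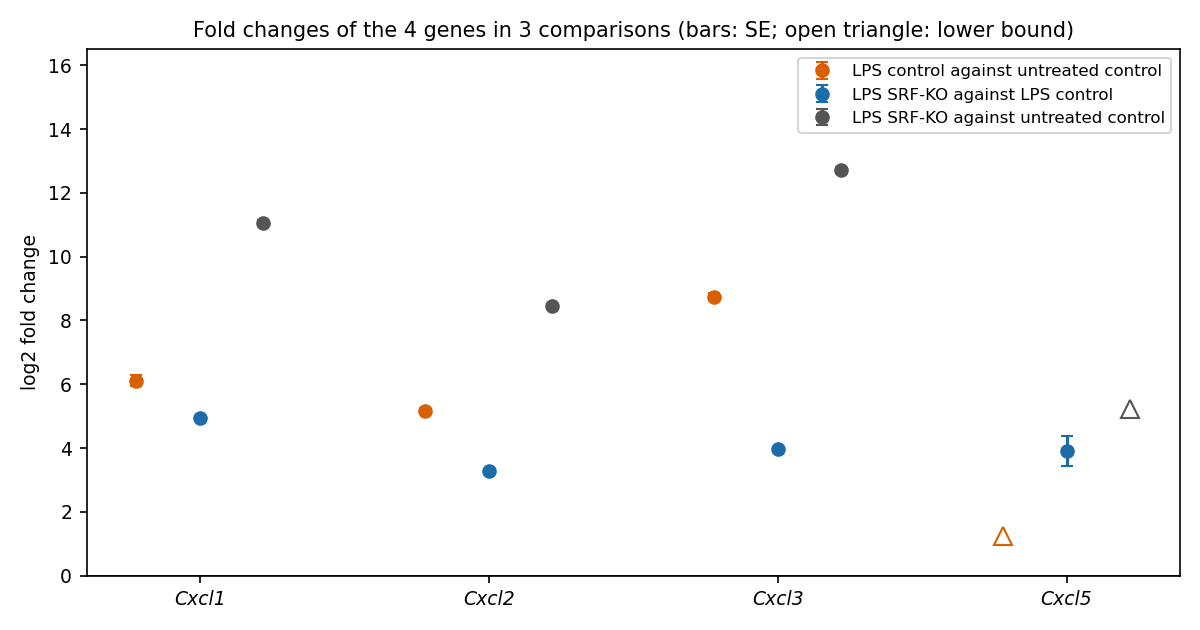
Log2 fold changes of the 4 genes in the 3 comparisons, with SE bars; most bars are smaller than the point. Open triangles, drawn as lower bounds, are ratios of Cxcl5 to the untreated limit, because the untreated libraries had 0 counts. They leave out counting error in the other group. In LPS SRF-KO against LPS control the 4 values run from 3.29 to 4.95.

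Set against all genes tested, differences of this size were uncommon. A rise of at least 4 on the log2 scale with an adjusted p below 0.05 was reached by 2.46% of genes in LPS control against untreated control. Cxcl1, Cxcl2 and Cxcl3 were among them. So was Cxcl5 by its fitted value of 4.22, which depends on the prior count and is no bound. In LPS SRF-KO against LPS control such a rise was reached by 0.943%, including Cxcl1 at 4.95, with Cxcl3 at 3.97 just under the limit of 4. Ordered by rise in that comparison, Cxcl1 stood at place 42 of 11560, Cxcl3 at 112 and Cxcl2 at 231. Cxcl5, at 3.90 and place 121, passed the filter on low counts only through LPS SRF-KO. It had to differ, so its place is only a description. Groups that do not overlap were themselves common, 82.1% of genes in the first comparison and 78% in the second. The comparison of LPS SRF-KO with untreated control, which called 79.5% of genes, 39.4% as higher and 40.1% as lower, uses the same libraries again. There Cxcl3 was at log2 12.72 (SE 0.0899), Cxcl1 at 11.06 (SE 0.0909) and Cxcl2 at 8.46 (SE 0.0674), and Cxcl5 was at 37.4-fold the untreated limit. In that comparison 2.72% of genes were called and higher by at least 4 on the log2 scale.

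The order of the 4 genes changed between groups. Per kilobase of merged exon, Cxcl2 led in untreated control at 1.84 CPM per kb, and Cxcl1 (0.149) and Cxcl3 (0.114) overlapped below it. In LPS control the order was Cxcl2 at 66.0 ± 2.46, Cxcl3 at 49.8 ± 2.58, Cxcl1 at 10.6 ± 0.592 and Cxcl5 at 0.0594 CPM per kb. In LPS SRF-KO Cxcl3 led at 779 ± 36.0, before Cxcl2 at 646 ± 21.8, Cxcl1 at 328 ± 11.4 and Cxcl5 at 0.988 ± 0.0944 CPM per kb. Neighbours in these orders did not overlap in either LPS-treated group. The order of Cxcl2 and Cxcl3 in LPS control depends on the length used: merged exons are 3498 bases for Cxcl3 but its coding transcript is 1016, and per kilobase of coding transcript Cxcl3 led there too.

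**Figure D3:**
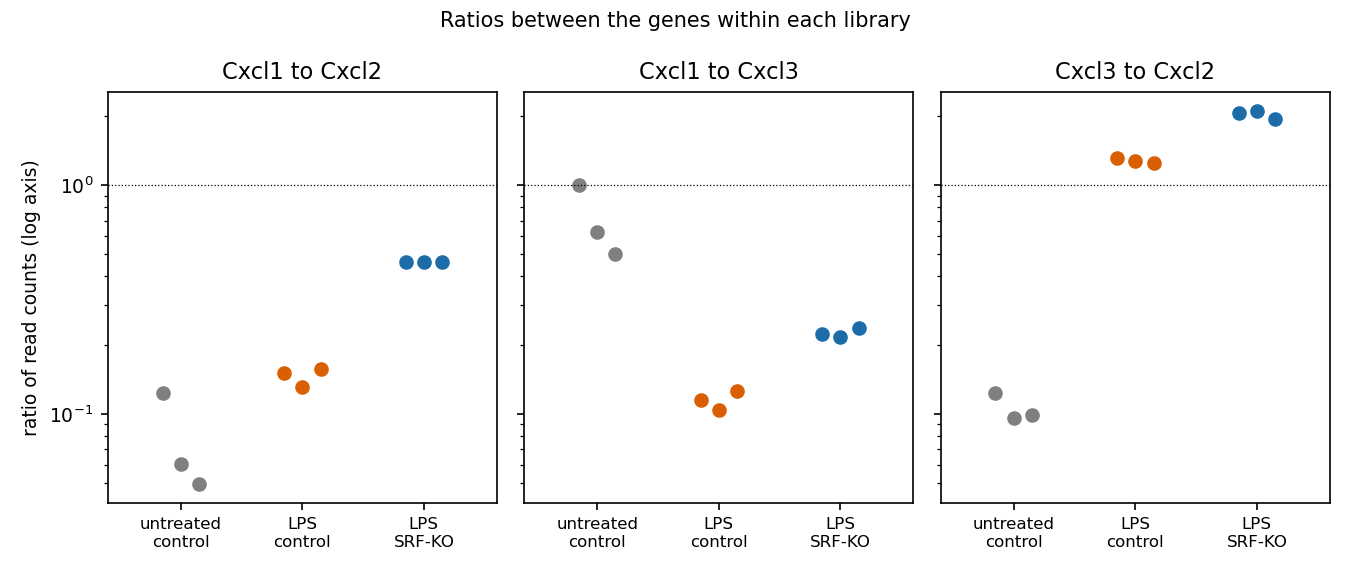
Ratio of read counts between pairs of the 3 abundant genes within each library, on a log axis; points are libraries by group and the dotted line marks a ratio of 1. Cxcl1 to Cxcl2 is 0.459 to 0.462 in LPS SRF-KO and 0.132 to 0.157 in LPS control.

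Ratios within a library do not depend on how libraries are scaled. Reads of Cxcl1 per read of Cxcl2 were 0.123, 0.0602 and 0.0494 in untreated control, 0.151, 0.132 and 0.157 in LPS control, and 0.460, 0.459 and 0.462 in LPS SRF-KO. The mean ratio was thus 3.15-fold higher in LPS SRF-KO than in LPS control: Cxcl1 differed more between these groups than Cxcl2 did. Reads of Cxcl3 per read of Cxcl2 were 0.123, 0.0964 and 0.0988 at rest, 1.31, 1.27 and 1.24 in LPS control and 2.06, 2.11 and 1.94 in LPS SRF-KO, a 12.1-fold step with LPS and a 1.60-fold step between the LPS-treated groups. Cxcl1 per Cxcl3 went the other way with LPS, from 1, 0.625 and 0.5 to 0.115, 0.104 and 0.126, and was 0.223, 0.217 and 0.238 in LPS SRF-KO, 1.97-fold above LPS control. Groups did not overlap in any of the 9 comparisons of a ratio between 2 groups. Each gave p = 0.1 in a two-sided exact permutation test, the smallest that 3 against 3 libraries allow, and 0.1 after adjustment over the 9.

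As shares of the summed counts per kilobase of merged exon, Cxcl2 held 87.2% ± 3.89 in untreated control, 52.2% ± 0.656 in LPS control and 36.8% ± 0.707 in LPS SRF-KO, without overlap. Cxcl3 held 5.45% ± 0.505, 39.4% ± 0.758 and 44.4% ± 1.13. Cxcl1 held 7.35% ± 3.40, 8.42% ± 0.707 and 18.7% ± 0.426, so its share differed between the LPS-treated groups and overlapped between the control groups. Cxcl5 held under 0.1% in each group.

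The 4 genes sit in a larger run of CXC chemokine and EGF-family genes, and other genes of it differed too. Within 1000 kb of a member, 18 other genes were counted and 10 were tested. In LPS SRF-KO against LPS control 5 of the 10 were higher, 3 were lower and 2 did not pass, against 39.1% higher and 37.9% lower of all genes tested. Downstream of Cxcl2, Ereg (epiregulin, an EGF receptor ligand) had 0 counts in all 3 untreated control libraries, 2, 5 and 4 in LPS control and 1327, 1533 and 987 in LPS SRF-KO. It was higher by log2 7.78 (SE 0.152). Areg (amphiregulin, another EGF receptor ligand) beside it had 0 counts in untreated control, 0, 5 and 2 in LPS control and 399, 415 and 325 in LPS SRF-KO, log2 6.66 (SE 0.249). Upstream, Rassf6 was higher by log2 4.14 (SE 0.471) on 4 against 117 counts, and Afp by 1.82 (SE 0.149). Like Cxcl5, Ereg, Areg and Rassf6 passed the filter on low counts only through LPS SRF-KO, so they had to differ and the 5 higher genes are a description.

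Between these, the chemokine genes next to Cxcl5 and Cxcl3 did not follow. Pf4, which encodes platelet factor 4, a CXC chemokine without the ELR motif, was lower by log2 -0.85 (SE 0.0438) in LPS SRF-KO. Ppbp, whose product is a platelet CXCR2 ligand, was at log2 0.44 (adjusted p = 0.151, and 0.0094 with scaling by library totals). Mthfd2l was higher by 0.83 (SE 0.202), Cox18 and Ankrd17 were lower by log2 -0.96 and -0.54, and Gm9958 was at -0.53 (adjusted p = 0.142). Cxcl15, another ELR chemokine gene of the region, had 4 counts in all 9 libraries together and was not tested.

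**Figure D4:**
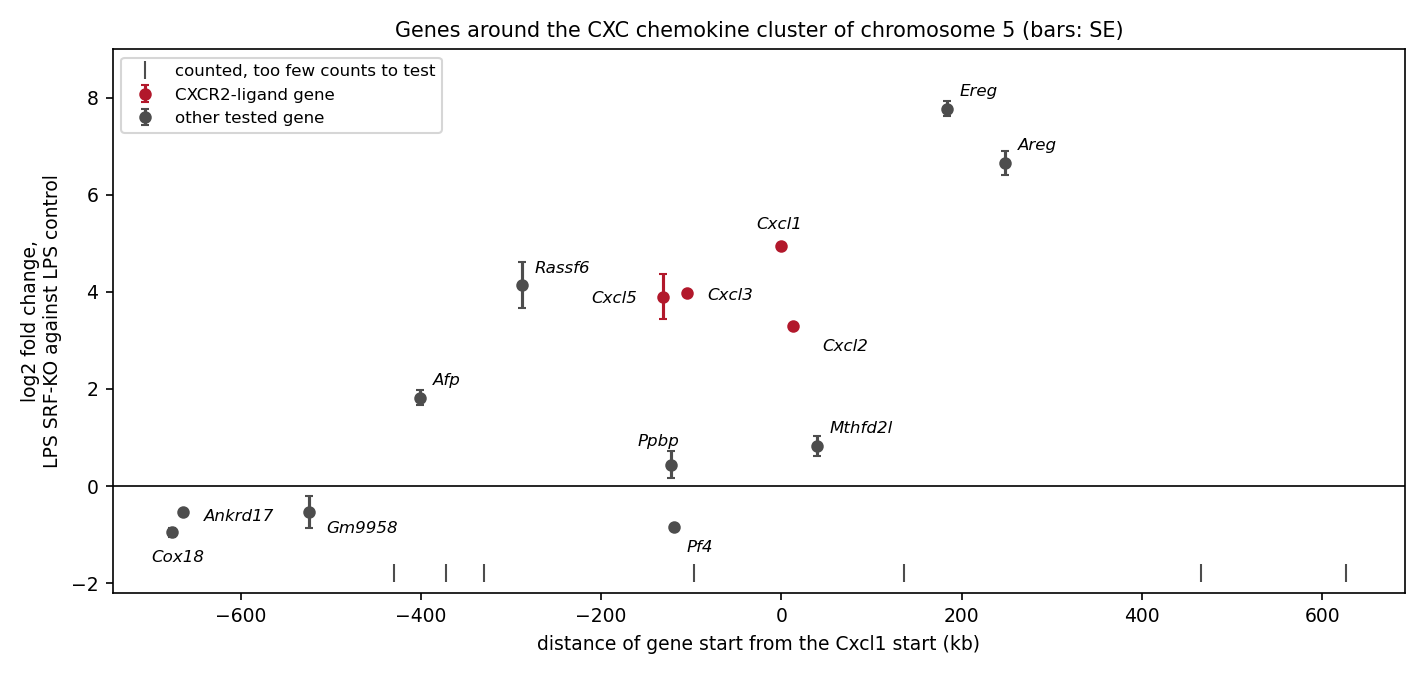
Log2 fold change in LPS SRF-KO against LPS control (SE bars) by distance of the gene start from the Cxcl1 start in kb. Red points are the 4 chemokine genes, grey points the other tested genes and ticks genes with too few counts to test. Ereg at 7.78 and Areg at 6.66 lie above the 4 genes, and Pf4 at -0.85 and Ppbp at 0.44, close to Cxcl5, lie below them.

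The receptors of these chemokines were all but absent. Cxcr2 had 2 counts in each untreated control library, 0, 1 and 1 in LPS control and 0, 2 and 0 in LPS SRF-KO. Cxcr1 had 1 count in 1 library, and Ackr1, a decoy receptor, had 0 in each, which allows up to 3 counts per group. Mif, whose product can also bind CXCR2, was at log2 -0.03 between the LPS-treated groups (adjusted p = 0.564, and log2 0.33 with library totals). Of the 6 genes listed as other CXCR2 ligands and receptors, Mif and Ppbp were tested, with a median of log2 0.21, and both were higher with library totals (median 0.56).

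Cxcl10, Cxcl9 and Cxcl16, which attract lymphocytes, were lower in LPS SRF-KO than in LPS control. Cxcl10, an interferon-induced ligand of CXCR3, went from 46.3 CPM in untreated control to 3205 in LPS control and was 475.5 in LPS SRF-KO (log2 -2.75 against LPS control). Cxcl9, a second CXCR3 ligand, went from 1.03 to 23.9 CPM and was 3.39 in LPS SRF-KO (log2 -2.82). Cxcl16, the CXCR6 ligand, was at 489, 1175 and 492 CPM (log2 -1.25). Of the 5 CXC chemokines tested outside the CXCR2 ligands, 4 were lower and 1, Cxcl14 at log2 0.79, was higher, beside 37.9% lower and 39.1% higher of all genes tested. Their median was log2 -1.25, or -0.90 with library totals, beside 0.01 for all genes tested (0.37 with library totals). The 3 other genes of that list, Cxcl12 and Cxcl13 among them, had too few counts to test.

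**Figure D5:**
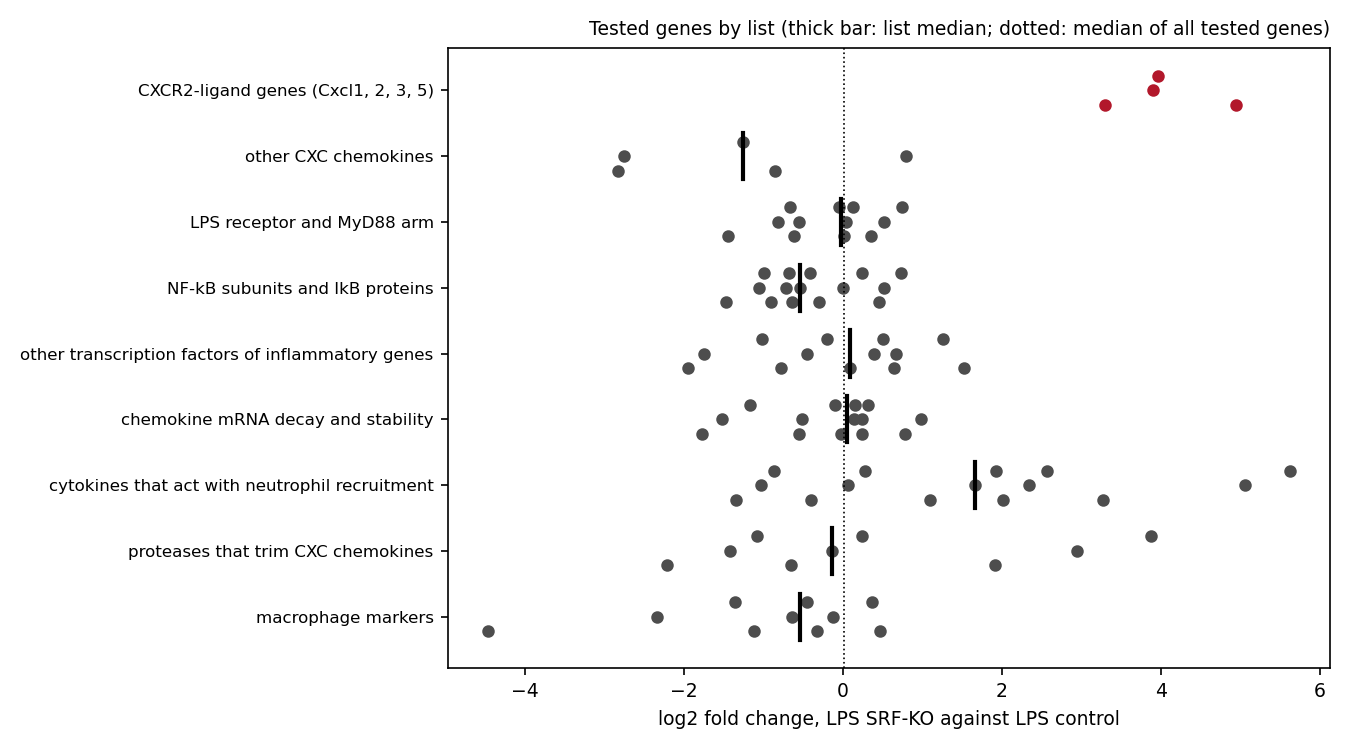
Log2 fold change in LPS SRF-KO against LPS control of the tested genes of each list, 1 point per gene. The thick bar is the list's median and the dotted line the median of all 11560 genes tested. The chemokine genes lie between 3.29 and 4.95, and the lists of signalling, NF-kB and decay factors have medians between -0.54 and 0.09.

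Genes of the pathway that switches the 4 chemokines on differed by much less. Of 12 tested genes of the LPS receptor and its MyD88 arm, 4 were higher, 5 were lower and 3 did not pass in LPS SRF-KO (median log2 -0.02). Over all genes tested, 39.1% were higher and 37.9% lower in this comparison. Scaling by library totals gave 7 higher and 5 lower, median 0.33. The adaptor gene Myd88 was lower by log2 -1.45 and the kinase gene Irak2 by -0.66, while the LPS co-receptor gene Cd14 was higher by 0.75. NF-kB subunit and IkB genes all rose with LPS in control cells, 15 of 15 (13 with library totals), beside 40.8% of all genes tested. In LPS SRF-KO 10 were lower, 4 were higher and 1 did not pass, median log2 -0.54. With library totals 8 were lower and 5 higher, median -0.18. The lower ones included Bcl3 (-1.47), Nfkbia (-1.06), Nfkbib (-0.99) and Nfkbiz (-0.91), the last encoding an IkB protein that acts in the nucleus on secondary response genes. The 4 higher ones with TMM scaling were Ikbkg (0.73), Nfkbid (0.52), Nfkb1 (0.45) and Rel (0.25).

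Nfkbia, the gene of the NF-kB inhibitor IkB-alpha, also carries GGGAATTTCC in its promoter window. It rose by log2 3.70 with LPS and was lower in LPS SRF-KO, unlike the 3 chemokine genes. Of the 14 tested genes with the string in their window besides Cxcl1, Cxcl2 and Cxcl3, 4 were higher, 6 were lower and 4 did not pass in LPS SRF-KO against LPS control, median log2 -0.19. This stands beside 39.1% higher and 37.9% lower of all genes tested.

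Of 13 other transcription factors of inflammatory genes tested, 6 were higher and 6 lower, beside 39.1% and 37.9% of all genes tested. Their median was log2 0.09 (8 higher and 5 lower, median 0.44, with library totals). Irf1, the gene of an interferon regulatory factor, was lower by log2 -1.74, and the AP-1 subunits Jun (1.52) and Fosl2 (1.26) were higher. Of 14 tested genes that act on the decay or stability of chemokine mRNA, 7 were higher, 5 were lower and 2 did not pass, beside the same shares of all genes. Their median was log2 0.06 (9 higher and 5 lower, median 0.41, with library totals). Zfp36, the gene of tristetraprolin, was at 139.7 CPM in untreated control, 696 in LPS control and 242 in LPS SRF-KO, lower than LPS control by log2 -1.52. Dusp1, a phosphatase that switches off p38 signalling, was lower by -1.77, and Zc3h12a, the gene of the RNase regnase-1, by -0.55. Mapkapk2 (-0.51) and Arid5a (-1.17) were the remaining lower genes. Among the 7 higher genes Zfp36l2, at log2 0.99, had the smallest p, and the part of these genes was not tested.

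Of 15 tested cytokines and mediators that act with these chemokines in neutrophil recruitment, 10 were higher, 3 were lower and 2 did not pass in LPS SRF-KO, median log2 1.66 (11 and 3, median 2.01, with library totals), beside 39.1% higher, 37.9% lower and a median of 0.01 over all genes tested. Among the 10, Lif had 13 counts in LPS control and 1012 in LPS SRF-KO, and Il23a had 8 and 426. Both passed the filter on low counts only through LPS SRF-KO, so they had to differ. The higher ones included Osm (3.27), Csf3, the gene of G-CSF (2.57), Il6 (2.34), Ptgs2, the gene of cyclooxygenase-2 (2.02), and Il1a (1.92). Csf3 had 0 counts at rest and was at 7.70 CPM in LPS control and 45.6 CPM in LPS SRF-KO. With LPS in control cells 14 of the 15 rose (13 with library totals), beside 40.8% of all genes.

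Likeness of pattern was measured as the root mean square difference in log2 CPM, centred on each gene, over the 9 libraries, among 8471 genes. Nearest to Cxcl1 were Slc7a11, the cystine transporter (0.635), Acpp (0.802), Thbs1, thrombospondin-1 (0.867), Serpinb2 (1.06) and Lox (1.40). Nearest to Cxcl2 were Thbs1 (0.240), Acpp (0.247), Slc7a11 (0.589), Slc6a12 (0.718) and Gja1 (0.832). Thbs1, the nearest to Cxcl2, was at 3.93 CPM in untreated control, 202 in LPS control and 1850 in LPS SRF-KO. Nearest to Cxcl3 were Il6 (0.689), Serpinb2 (0.835), Ptgs2 (0.856), Il1a (0.961) and Slc7a11 (1.15). Slc7a11 was thus among the nearest 5 genes for each of the 3 abundant chemokine genes. Cxcl5, with few counts, was nearest to Sema3c (0.406), Mmp12 (0.407), Osm (0.451), Cd80 (0.527) and Col4a2 (0.537). Between the chemokine genes the difference was 0.986 for Cxcl1 and Cxcl2, 1.14 for Cxcl1 and Cxcl3 and 1.74 for Cxcl2 and Cxcl3.

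Markers of other cell types moved between groups, members of 1 list in both directions, and their part in the results was not tested. The 13 neutrophil and granulocyte markers summed to 53.8 to 57.4 CPM in untreated control, 244 to 257 in LPS control and 88.3 to 101.7 in LPS SRF-KO, nearly all of it Csf3r and Mmp8, with 4, 7 and 6 markers at 0. Csf3r was lower by log2 -3.78 in LPS SRF-KO than in LPS control, while Mmp8 was higher by 3.88 and Camp, at 46 against 167 counts, by 1.23. Ngp had 23 counts in untreated control, 2 in LPS control and 14 in LPS SRF-KO, 9 of the 14 in 1 library. Ltf had 29, 2 and 10, so both were highest in untreated control. The 12 stromal and endothelial markers summed to 18.5 to 21.6, 76.2 to 86.9 and 37.8 to 41.2 CPM, with Col1a1 and Col3a1 at 0 throughout and 5, 3 and 4 markers at 0. Endothelial Kdr, at 58.8 CPM in LPS control and 8.13 in LPS SRF-KO, was lower by log2 -2.86, and Cdh5 and Pecam1 were lower by -2.23 and -1.78. Stromal Acta2 was higher by log2 2.20 and Pdgfrb by 0.90, the direction of Cxcl5. Lum, with 1 count in LPS control and 15 in LPS SRF-KO, had that direction too. Dcn was at 0.290 ± 0.101 CPM in LPS control and 0.430 ± 0.102 in LPS SRF-KO, with overlapping libraries. Col1a2 and Pdgfra each had 1 count in LPS control and 0 in LPS SRF-KO. Acta2, at 12 and 87 counts, passed the filter on low counts only through LPS SRF-KO, so it had to differ. The 8 dendritic cell markers summed to 0.917 to 1.15, 3.30 to 4.43 and 11.6 to 12.6 CPM, with Ccr7 higher by log2 2.03 in LPS SRF-KO. T, B, NK and mast cell markers summed to 1.34 CPM or less and epithelial markers, from cells known for Cxcl5, at 2.35 CPM or less, with Krt8, Krt18 and Krt19 at 0. Within the epithelial sum, Epcam had 0 counts in both control groups and 18 in LPS SRF-KO, the direction of Cxcl5, and Cdh1 was lower by log2 -0.97. Among the macrophage markers 8 of 10 were lower and 2 were higher in LPS SRF-KO than in LPS control (6 and 3 with library totals). Over all genes tested, 37.9% were lower and 39.1% higher. Fcgr1 was at log2 -4.46, Mertk at -2.33 and Cd68 at -1.35. The 2 higher ones were Lyz2 at log2 0.46 and Csf1r at 0.36. Lyz2 was at 8925 CPM in LPS control and 12296 in LPS SRF-KO.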

How the data were processed

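Per the file headers, the values deposited by the authors are raw read counts, 1 for each Ensembl identifier in each of 9 libraries. STAR 2.5.4b, featureCounts, Trimmomatic, bcl2fastq 2.19 and edgeR are named, with GRCm38, in the submitters' processing notes, and the labels give a stranded TruSeq protocol. Not given in the sources used here are the annotation release and whether counting used strand. Symbols matched 22214 of 22524 identifiers.

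All 9 libraries entered 1 quasi-likelihood fit in edgeR 4.0.16 (R 4.3.3, limma 3.58.1) after filterByExpr (11560 genes) with TMM scaling (it takes the bulk of genes as unchanged) and Benjamini-Hochberg adjustment. Genes passed at an adjusted p below 0.05. The fit was tested on simulated data. A group with 0 counts was given 3 counts as a limit, and ratios to it leave out counting error in the other group. Intervals (95%, exact) cover counting error only. No 2 replicates agreed within sampling noise.

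The 4 genes and all lists were chosen with earlier results of these data known. Named by rule were the 4 genes, the receptors, Srf and the tested neighbours. The 5 genes most like each of the 4 were named too (mean log2 CPM of at least 3). Of each list, up to 5 genes with the smallest p in LPS SRF-KO against LPS control were named. Others were singled out after their values were seen, among them Cxcl15, Lif, Il23a, Arid5a, Nfkbid, Nfkb1, Rel, Lyz2 and Csf1r. So were markers with too few counts to test, such as Ngp, Ltf, Dcn, Lum and Epcam. Cebpd was on a list and is not analysed here. Alternatives were library totals, DESeq2 1.42.0, no filter, a replicate block, 2 groups only, leaving out each library, and other lengths.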

Additional observations from a re-analysis of the deposited data

How the results depend on the processing

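Of 270 recalculated values, 252 kept their direction and call or stayed within the replicate spread. This number overstates the agreement. Shares with 1 library left out had to stay within the spread, which comes from the same 3 libraries. Numbers of genes called were counted as kept with library totals, although their split into higher and lower moved, as given below. Leaving out each library in turn gave Cxcl5 in LPS control against untreated control fitted log2 values of 3.63 to 4.76, which depend on the prior count and are no bound, and the call was lost without LPS control replicate 3 (adjusted p = 0.0623, 1 library with counts left). Shares of the 4 genes moved with the length used. Counts without length gave Cxcl1 6.04% in LPS control and 13.2% in LPS SRF-KO, Cxcl2 41.3% and 28.6%, Cxcl3 52.6% and 58.2% after 8.94% in untreated control, and Cxcl5 0.0394% in LPS SRF-KO. Coding transcript length, chosen after seeing the data, gave Cxcl1 6.65% and 14.25%, Cxcl2 39.0% and 26.6% after 83.1% in untreated control, Cxcl3 54.3% and 59.1% after 9.57%, and Cxcl5 0.0258%. Library totals moved the median of all genes to log2 -0.57 with LPS and 0.37 between the LPS-treated groups (TMM: -0.02 and 0.01). They gave 2428 genes higher and 7835 lower with LPS (TMM: 4722 higher of 9443), and 7059 higher and 2434 lower in LPS SRF-KO against LPS control (TMM: 4521 higher of 8905). Cxcl1, Cxcl2, Cxcl3 and Cxcl5 were then higher in LPS SRF-KO by log2 5.30, 3.65, 4.32 and 4.24. Replicate numbers did not pair the libraries (correlations of same-numbered libraries -0.135 to 0.308). With a replicate block 9467, 8919 and 9231 genes passed in the 3 comparisons, and no call on the 4 genes changed. Depth limits Cxcl5, Cxcl15 and the receptors, at a few counts each.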

Other observations

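Proteases that can trim CXC chemokines differed in both directions between the LPS-treated groups. Of 9 tested, 4 were higher and 5 were lower in LPS SRF-KO, median log2 -0.14 (5 and 4, median 0.22, with library totals). Over all genes tested, 39.1% were higher and 37.9% lower. Mmp12, the macrophage elastase, was at 77.5 CPM in untreated control, 133 in LPS control and 1026 in LPS SRF-KO, log2 2.94 above LPS control. Mmp8, or neutrophil collagenase, was higher by log2 3.88 and Mmp9 by 1.91, and Mmp14 was lower by -2.21 and Ctsb by -1.41. Csf3, whose product mobilises neutrophils, was higher in LPS SRF-KO by log2 2.57, and Csf3r, the gene of its receptor, was lower by -3.78.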
